A study of Mus musculus with 12 samples.

Results

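Muscle stem cells from mice over 1 year old were compared with those from mice at postnatal day 21. The 6 arrays of these 2 groups, of 12 arrays in the series, were chosen by the age in the labels. The other 6 hold fetal cells (E17.5) and adult cells (2 to 3 months). These enter only where a course over 4 ages is described, in the choice of the probe set of a gene, and in alternative fits. All cells were sorted by green fluorescence from heterozygous Pax7-ZsGreen mice labelled C57BL/6, whose reporter marks cells that use the Pax7 gene. The aged group holds 3 arrays of hindlimb cells from mice over 1 year, pooled from 8 animals. The adolescent group holds 3 arrays of hindlimb cells from day 21, pooled from 6 animals. No upper age limit and no sex were given, no animal was treated, and wild-type muscle served only to set the sorting gates. It is not stated whether the 3 replicates of an age were separate pools, so the p-values cover only the variation among these arrays, part or all of which could be technical.

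Satellite cells lie between the muscle fibre and its basal lamina and are the stem cells of skeletal muscle. In young growing mice many of them divide and add nuclei to the fibres, and in mature muscle nearly all are quiescent, a resting state from which injury or exercise can recall them. The transcription factors Pax7 and Myf5 mark the stem cell, Myod1 and Myog drive commitment and differentiation, and Notch, bone morphogenetic protein and cytokine signals help to decide between rest and division.

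One gene per symbol was measured by its brightest probe set, and 19938 genes were compared. Values are on the log2 scale of the deposited arrays, so a difference of 1 is a 2-fold change, and every difference is aged minus adolescent with its moderated standard error over 3 arrays against 3. A gene is said to rise or fall where its adjusted p was under 0.05 in limma.

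Array medians lay between 6.25 and 6.26 in aged cells and between 6.13 and 6.20 in adolescent cells. Probe sets of olfactory and vomeronasal receptors, genes used in the nose, gauged the background. The 1212 such probe sets averaged 4.30 on aged replicate 1, 3.81 on aged replicate 2 and 3.83 on aged replicate 3, against 3.87, 3.91 and 3.91 on the adolescent arrays. Aged replicate 1 stood apart also in its correlation across genes, 0.984 and 0.987 with the other two aged arrays, which correlated at 0.997 with each other. Adolescent replicates 2 and 3 correlated at 0.999, and adolescent replicate 1 at 0.993 with each. Correlations between the ages ran from 0.963 to 0.968. A gene whose group mean lay below the 95th percentile of the receptor probe sets, 5.54 in aged and 5.46 in adolescent cells, is described as within the receptor range, where a low level cannot be told from background.

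The sorted cells carried their defining markers at both ages. Pax7 read 11.51, 11.67 and 11.71 on the aged arrays, against 10.84, 11.03 and 10.997 on the adolescent arrays. Myf5 read 10.74, 10.93 and 10.87 in aged cells and 10.27, 10.20 and 10.12 in adolescent cells. Pax7 differed by 0.67 ± 0.10 (adjusted p = 0.0019) and Myf5 by 0.65 ± 0.09 (adjusted p = 0.00176), with no overlap between the groups. Markers of other cells were present too. Cdh5, the cadherin of endothelial junctions, read 10.29, 10.75 and 10.74 in aged and 10.66, 10.11 and 10.18 in adolescent cells, and all 4 defining endothelial markers lay above the receptor range. Of the defining markers of neutrophils, 4 of 4 lay within it. In bulk RNA, fewer cells of a type and less RNA per cell cannot be told apart.

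Of 19938 genes, 4489 (22.5%) differed between the ages, 1730 higher in aged cells (8.68%) and 2759 lower (13.8%). Changes of at least 2-fold were called for 851 genes (4.27%), 324 higher (1.63%) and 527 lower (2.64%). In 7654 genes (38.4%) the values of the ages were fully separate, 3156 with all aged arrays higher (15.8%) and 4498 with all aged arrays lower (22.6%). The median difference over all genes was -0.01. The balance of directions depended on scaling. As deposited, 38.5% of the calls were higher in aged cells. The share was 24.5% (1266 higher, 3902 lower) after each array was centred on its median. It was 49.2% (2360 higher, 2436 lower) after quantile normalization was repeated on all probe sets that carry 1 gene symbol. Centring moved the median difference to -0.11. Single arrays mattered as well. Without aged replicate 1 the calls numbered 6690 (3006 higher, 3684 lower), and without aged replicate 3, adolescent replicate 2 or adolescent replicate 3 they numbered 2861 (1031 higher, 1830 lower), 2877 (1012 higher, 1865 lower) and 2748 (1006 higher, 1742 lower).

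Lists of genes with a shared role were chosen with earlier results of these arrays known, so their counts are descriptions, set beside the 8.68% and 13.8% of all genes. Among 42 lists of pathways and functions, the direction with more calls was the same as deposited, after centring and after repeated quantile normalization in 32. The exceptions are named where they are described.

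**Figure D1:**
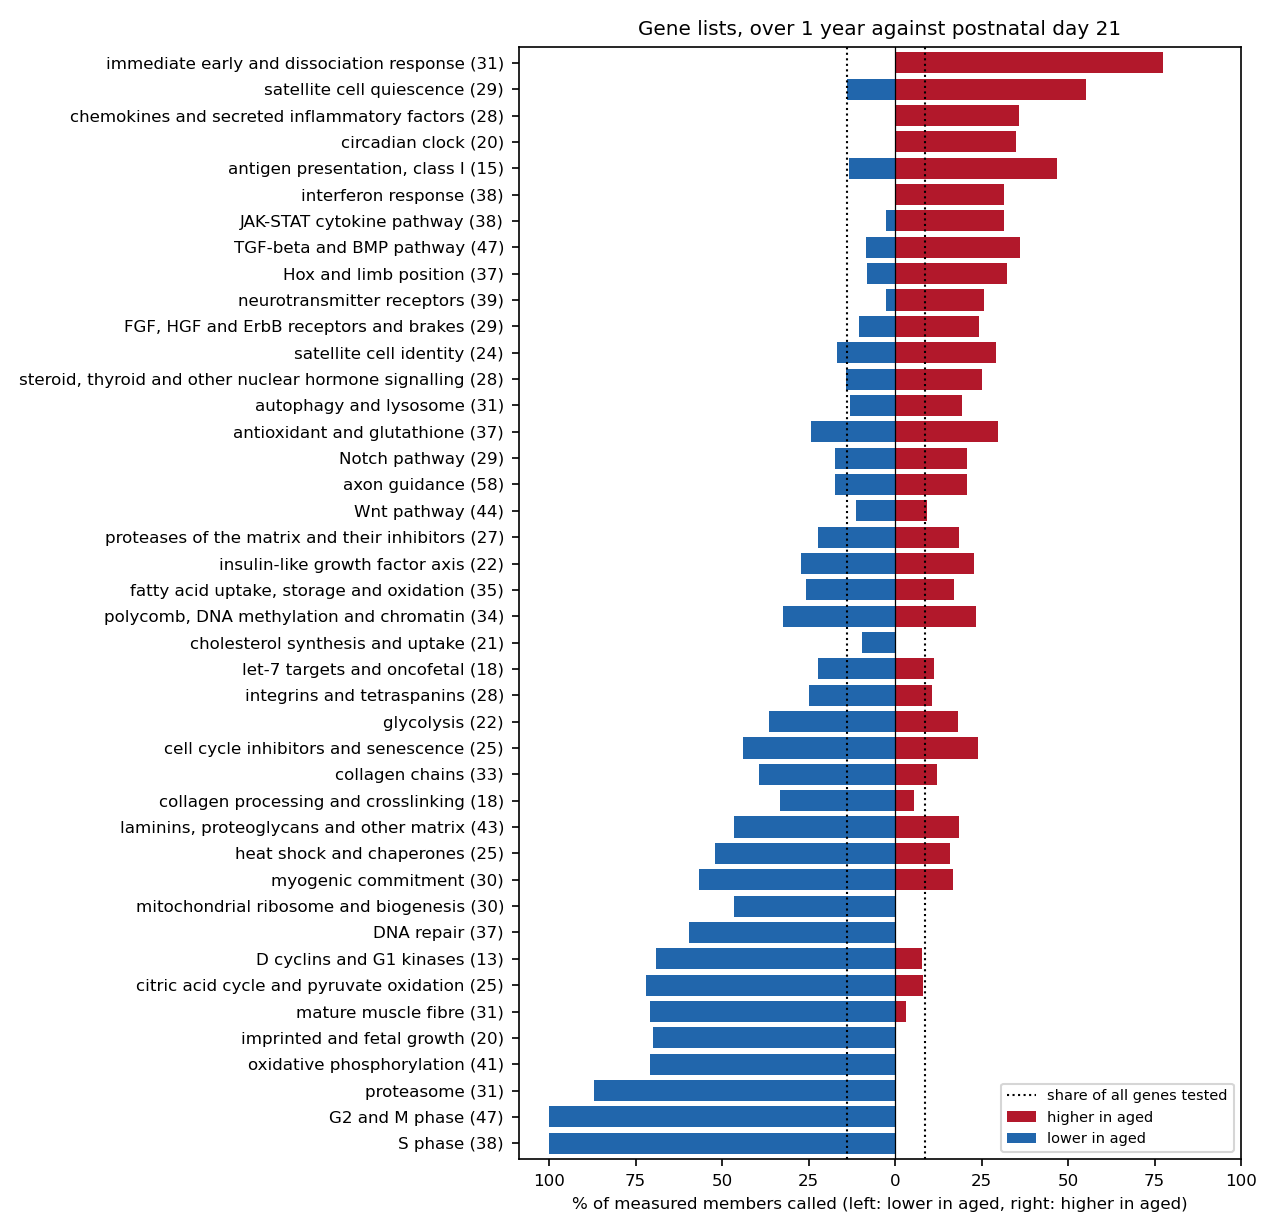
Share of the measured members of each list that were called, in percent, to the right where aged cells were higher and to the left where they were lower. Numbers beside the names are measured members, and dotted lines mark the 8.68% and 13.8% of all genes. Both cell division lists lie fully to the left, and the immediate early list reaches furthest to the right.

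Genes of cell division gave the largest falls. All 47 measured genes of the G2 and M phase list were lower in aged cells, each by at least 2-fold, with differences from -4.35 to -1.36 and a median of -3.18. All 38 genes of the S phase list were lower too, 34 of them by at least 2-fold, with a median of -1.69. Both counts were the same without aged replicate 1. Top2a, the enzyme that untangles DNA strands before division, read 6.40, 5.76 and 5.34 in aged cells, against 9.98, 10.15 and 10.04 in adolescent cells, a difference of -4.22 ± 0.23 (adjusted p = 1.94e-05). Mki67, a nuclear protein used as a marker of cycling cells, read 7.38, 6.46 and 6.15 in aged cells and 10.56, 10.54 and 10.55 in adolescent cells (-3.88 ± 0.27). Aged replicate 1 was the highest of the aged arrays for both and still lay far below every adolescent array.

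Cdk1, the kinase that starts mitosis, stood at 7.23, 6.01 and 5.92 in aged cells and at 10.20, 10.31 and 10.26 in adolescent cells (-3.87 ± 0.31). Its partner cyclin Ccna2 had 7.81, 6.34 and 6.23 against 10.66, 10.45 and 10.43 (aged, then adolescent), a difference of -3.72 ± 0.37. Other large falls took in the spindle motor Kif11 (-4.14 ± 0.30), the checkpoint kinase Bub1 (-4.35 ± 0.33), the condensin subunit Ncapg (-3.92 ± 0.16), the kinetochore scaffold Knl1 (-3.77 ± 0.25), and Anln (-3.77 ± 0.32) and Ect2 (-3.77 ± 0.29), which act in cytokinesis. Esco2, which sets the cohesion of sister chromatids, differed by -4.20 ± 0.27, the DNA repair glycosylase Neil3 by -3.84 ± 0.25, and Depdc1a by -3.97 ± 0.26. The smallest p-values of the G2 and M phase list belonged to the kinetochore genes Cenpe (-3.13 ± 0.09) and Spc25 (-3.11 ± 0.09), the cytokinesis regulator Racgap1 (-3.46 ± 0.13), the checkpoint kinase Bub1b (-2.51 ± 0.09) and Incenp (-2.13 ± 0.08). For Bub1, Esco2, Depdc1a, Ncapg, Neil3, Knl1, Cenpe and Spc25 the aged level lay within the receptor range.

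**Figure D2:**
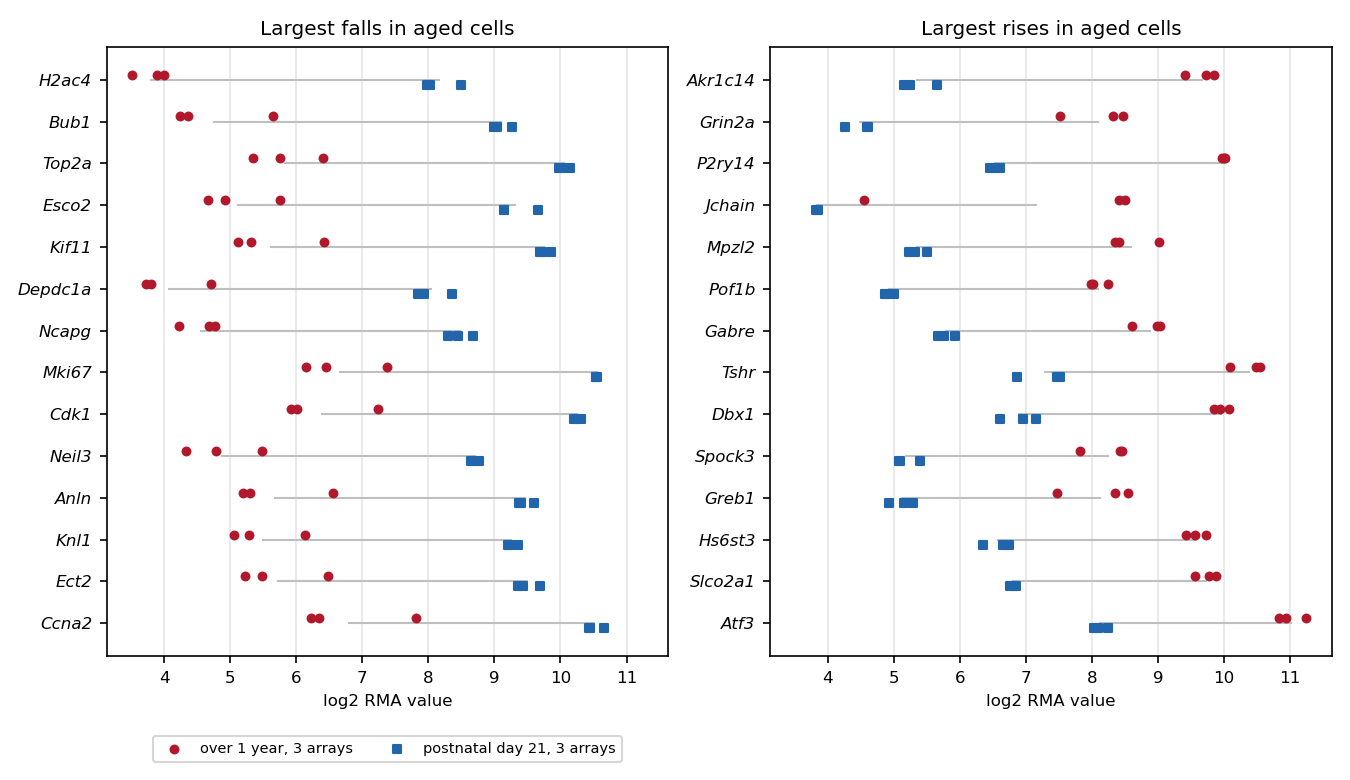
The 14 largest falls and the 14 largest rises among named genes, as log2 values of each aged array (circles) and each adolescent array (squares), joined by a line between group means. Falls are led by genes of division, and aged replicate 1 is the rightmost circle for all but H2ac4. In the right panel Jchain has 1 aged array close to the adolescent ones.

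In S phase, Mcm6, a subunit of the helicase that opens DNA for copying, read 6.31, 6.30 and 6.06 in aged cells and 9.75, 9.08 and 9.04 in adolescent cells (-3.07 ± 0.19, adjusted p = 3.11e-05). Adolescent replicate 1 was the highest of the adolescent arrays. The clamp loader subunit Rfc3 (-1.81 ± 0.10), Rrm1 of the enzyme that makes deoxynucleotides (-1.79 ± 0.13), the transcription factor E2f2 (-1.59 ± 0.12) and the flap nuclease Fen1 (-1.43 ± 0.10) were also lower. The list mean put adolescent replicate 1 at 8.75, above the 8.03 and 8.05 of adolescent replicates 2 and 3, while the G2 and M phase mean was close on all 3 (8.83, 8.70 and 8.70). Over the 4 ages in order, the G2 and M phase mean was 9.21 to 9.58 in fetal, 8.70 to 8.83 in adolescent, 5.71 to 7.20 in adult and 5.44 to 6.11 in aged cells, where the adult value of 7.20 came from adult replicate 1 alone.

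Histone genes, which supply the protein spools for newly copied DNA, were grouped after their values were seen. Of 26 measured histone genes of the clusters used during replication, 22 were lower in aged cells and 1 was higher, with a median of -1.21. Over all genes 13.8% were lower and 8.68% higher. H2ac4 read 3.51, 3.89 and 3.99 in aged cells and 8.49, 8.02 and 7.99 in adolescent cells (-4.36 ± 0.17), its aged level within the receptor range, so background limits the size of the difference. The linker histones H1f5 (-3.64 ± 0.17) and H1f1 (-3.09 ± 0.12) and the core histones H2bc3 (-3.37 ± 0.29), H2ac15 (-3.14 ± 0.33) and H4c6 (-2.37 ± 0.13) were lower as well. H2bc4 alone was higher, at 10.37, 10.26 and 10.46 in aged and 9.40, 9.85 and 9.81 in adolescent cells (0.68 ± 0.13). Histone genes are close copies of each other, so a probe set may read several of them.

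Promoters of the division genes are shown because these genes moved together and because their known control elements are short enough to read. The cell cycle homology region (CHR, TTTGAA) and the CCAAT box (CCAAT) are elements known from promoters of genes of late division, the CCAAT box also from many others, and E2F sites (TTTCCCGC, TTTGGCGC or TTTCGCGC) act in S phase genes. Each motif was searched on both strands in the 250 bases before the start of the gene. Sequences are from RefSeq, build GRCm38.p6, written 5′ to 3′ on the strand of the gene, with matches to any of these 3 motifs in capitals.

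Top2a, chr11:99024190-99024299, minus strand: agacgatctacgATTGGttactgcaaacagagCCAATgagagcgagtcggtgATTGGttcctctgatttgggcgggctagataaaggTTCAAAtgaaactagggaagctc
Cdk1, chr10:69352913-69353052, minus strand: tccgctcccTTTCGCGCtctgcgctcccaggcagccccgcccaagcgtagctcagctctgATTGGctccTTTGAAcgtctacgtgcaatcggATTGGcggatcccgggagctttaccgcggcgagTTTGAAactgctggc
Kif11, chr19:37376322-37376381, plus strand: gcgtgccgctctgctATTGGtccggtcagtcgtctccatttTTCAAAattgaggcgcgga
Ncapg, chr5:45669735-45669924, plus strand: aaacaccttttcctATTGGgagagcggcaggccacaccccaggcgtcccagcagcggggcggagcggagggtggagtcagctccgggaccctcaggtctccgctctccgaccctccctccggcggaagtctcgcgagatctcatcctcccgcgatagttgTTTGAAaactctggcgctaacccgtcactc
Mki67, chr7:135716380-135716579, minus strand: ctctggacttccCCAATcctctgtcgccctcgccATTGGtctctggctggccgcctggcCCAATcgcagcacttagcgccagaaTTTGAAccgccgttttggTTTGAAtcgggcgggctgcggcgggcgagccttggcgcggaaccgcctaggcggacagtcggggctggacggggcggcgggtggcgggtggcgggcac
Mcm6, chr1:128359706-128359825, minus strand: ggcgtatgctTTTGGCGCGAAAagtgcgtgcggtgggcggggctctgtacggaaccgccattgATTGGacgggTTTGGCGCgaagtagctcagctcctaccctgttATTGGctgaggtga

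Top2a held 3 CCAAT boxes and a CHR that begins 23 bases before the start. Cdk1 held 2 CCAAT boxes, CHR matches that begin 71 and 15 bases before the start, and 1 E2F match. In Mcm6 the first 2 of 3 E2F matches overlap. Among the 38 called G2 and M phase genes with a promoter in the table, 14 (36.8%) held a CHR and 27 (71.1%) a CCAAT box, against 15.7% and 38.8% of the 15614 measured genes with a promoter. Among 31 S phase genes, 8 (25.8%) held an E2F match, 19 (61.3%) a CCAAT box and 5 (16.1%) a CHR, and 2.51% of all measured genes held an E2F match. An E2F match was found in 1 of the 38 G2 and M phase genes (2.63%). These shares describe the letters and were not tested.

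Regulators of the entry into division moved both ways. Of 13 D cyclins and G1 kinases, 9 were lower in aged cells and 1 higher (2 higher without aged replicate 1). Ccnd1, the D cyclin that growth signals induce, read 9.66, 9.25 and 9.32 in aged cells and 11.21, 10.97 and 10.99 in adolescent cells (-1.65 ± 0.13, adjusted p = 9.74e-05). Cdk2 (-1.14 ± 0.09), E2f3 (-0.91 ± 0.13) and Mycl (-1.14 ± 0.13) were lower, and the growth regulator Myc was higher (0.80 ± 0.10). Among 25 inhibitors and senescence genes, 11 were lower, 4 of them by at least 2-fold, and 6 higher, 2 of them by at least 2-fold. Differences ran from -2.62 to 1.08, with a median of -0.13. Cdkn1c, an inhibitor of cyclin kinases that is imprinted, stood at 8.203, 7.91 and 7.97 in aged and at 9.96, 10.98 and 11.02 in adolescent cells (-2.62 ± 0.26), with adolescent replicate 1 the lowest of its group. Rbl1 (-2.48 ± 0.21), a relative of the retinoblastoma protein, Lmnb1 (-2.37 ± 0.12) of the nuclear lamina and the secreted Igfbp3 (-1.21 ± 0.12) were lower too. Cdkn2a, the locus of the senescence proteins p16 and p19, read 5.91, 5.54 and 5.63 in aged cells and 5.87, 5.83 and 5.70 in adolescent cells (-0.11 ± 0.12, adjusted p = 0.607), and the groups overlapped. The 11 falls of the inhibitor list became 6 without adolescent replicate 2, adolescent replicate 3 or aged replicate 3 and 7 without aged replicate 2.

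Genes of DNA repair followed the same direction, with 22 of 37 lower and 0 higher (1 higher without aged replicate 1). Brca1 (-2.36 ± 0.21), Rad51ap1 (-2.34 ± 0.24) and Rad54l (-2.18 ± 0.20), which serve repair by recombination, and the checkpoint kinase Chek1 (-2.29 ± 0.23) were lower, and adolescent replicate 1 was the highest array for all 4. The aged levels of Brca1, Rad51ap1 and Rad54l lay within the receptor range. In the list of Polycomb, DNA methylation and chromatin genes 11 of 34 were lower and 8 higher, a split that became 10 and 10 after repeated quantile normalization. Cbx7, a Polycomb protein, read 9.31, 9.22 and 9.25 in aged and 7.85, 7.79 and 7.78 in adolescent cells (1.45 ± 0.08, adjusted p = 2.16e-05). The maintenance methyltransferase Dnmt1 (-1.31 ± 0.13), Hmgb2 (-1.90 ± 0.12), Hmgb3 (-1.07 ± 0.09) and Suv39h2 (-0.97 ± 0.12) were lower.

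Of 24 markers of stem cell identity, 7 were higher in aged cells, 4 lower and 13 not called, with a median of 0.21, and centring gave 6 higher and 5 lower. Besides Pax7 and Myf5, the receptor Notch3 (0.80 ± 0.09) and the proteoglycan Sdc4 (0.80 ± 0.11) were higher, and Sox8 was lower (-0.99 ± 0.13). Pax3, the relative of Pax7, read 6.60, 6.79 and 6.77 in aged and 6.40, 6.36 and 6.41 in adolescent cells (0.33 ± 0.09, adjusted p = 0.0328), and its call was lost without any single array other than aged replicate 1. Chrdl2, a secreted antagonist of bone morphogenetic proteins, read 10.57, 10.44 and 10.58 in aged and 10.18, 10.65 and 10.67 in adolescent cells, a difference of 0.03 ± 0.14. Myod1 read 10.63, 10.26 and 10.39 against 10.75, 10.69 and 10.77 (aged, then adolescent), and its difference of -0.31 ± 0.11 did not pass (adjusted p = 0.0837), though it did without aged replicate 1 (-0.41).

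Of 29 genes linked to quiescence, 16 were higher, 8 of them by at least 2-fold, and 4 lower, 1 by at least 2-fold. The median was 0.46. Differences ran from -2.62 to 1.81, so the largest change was a fall, with the value given above for Cdkn1c. Angpt1, a ligand of the receptor Tek, read 6.19, 6.82 and 6.66 in aged and 4.82, 4.67 and 4.74 in adolescent cells (1.81 ± 0.16), the adolescent level within the receptor range. Zfp36, which hastens the decay of messenger RNAs, read 11.32, 11.01 and 11.09 in aged and 9.19, 9.51 and 9.43 in adolescent cells (1.77 ± 0.12). The transcription factors Klf4 (1.48 ± 0.09), Hes1 (1.42 ± 0.11) and Cebpb (1.34 ± 0.10) were higher as well, and these are also induced early after stress. Spry1, a brake on growth factor receptors that is known for its part in satellite cell quiescence, read 11.32, 11.45 and 11.52 in aged cells against 10.84, 10.96 and 10.96 in adolescent cells (0.51 ± 0.09). The calcitonin receptor Calcr, another quiescence marker, differed by 0.13 ± 0.09 (adjusted p = 0.377), and its groups overlapped. The quiescence falls, 4 in all, became 2 without aged replicates 2 or 3 or adolescent replicates 2 or 3.

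Of 30 commitment genes, 17 were lower in aged cells and 5 higher, with a median of -0.79. Myog, the factor that starts differentiation, read 7.38, 6.81 and 6.62 in aged and 9.64, 10.33 and 10.33 in adolescent cells (-3.17 ± 0.24, adjusted p = 7.89e-05). Mymk, the membrane protein that makes myoblasts fuse, read 7.68, 6.96 and 6.97 in aged cells and 9.56, 10.15 and 10.20 in adolescent cells (-2.77 ± 0.23). Actc1, the actin of heart and of developing muscle, differed by -3.68 ± 0.25, Acta1 of adult muscle by -1.19 ± 0.11 and the myosin light chain Mylpf by -1.45 ± 0.14. Actin genes are near copies of each other, so their probe sets may share signal. For Myog and Mymk aged replicate 1 was the highest aged array and adolescent replicate 1 the lowest adolescent array, so the ages were closest in these arrays and still did not overlap. The 5 rises became 3 without aged replicate 2, 2 without adolescent replicate 2 and 1 without aged replicate 3 or adolescent replicate 3.

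Genes of the mature fibre were mostly lower, 22 of 31 with 1 higher (2 without aged replicate 1) and a median of -0.63. The calcium channel Ryr1 (-1.34 ± 0.09), the fast myosin Myh1 (-1.15 ± 0.09), the Z-disc protein Myot (-0.96 ± 0.13) and the glycogen phosphorylase Pygm (-0.64 ± 0.09) were among them. Fbxo32, a ubiquitin ligase of muscle atrophy, was higher, at 7.78, 8.04 and 8.10 in aged and 7.05, 7.23 and 7.08 in adolescent cells (0.85 ± 0.11). The 22 falls became 14 without aged replicate 3, adolescent replicate 2 or adolescent replicate 3.

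Of the imprinted and fetal growth genes, 14 of 20 were lower in aged cells and 0 higher (2 higher without aged replicate 1), with a median of -0.53. Slc38a4, an amino acid transporter, read 5.92, 6.04 and 6.07 in aged and 9.05, 8.75 and 8.75 in adolescent cells (-2.84 ± 0.11, adjusted p = 4.68e-06). Dlk1, a Notch-like membrane protein of growing tissues, read 7.57, 7.63 and 7.72 in aged and 10.62, 10.18 and 10.29 in adolescent cells (-2.72 ± 0.13). Mest differed by -2.27 ± 0.10 and Asb4 by -1.14 ± 0.11. Igf2, the fetal growth factor, differed by -0.35 ± 0.09 (adjusted p = 0.0293), a call that was lost without any single array other than aged replicate 1. Of 22 genes of the insulin-like growth factor axis 6 were lower and 5 higher, and repeated quantile normalization gave 5 and 7. Igf1 read 8.44, 8.83 and 8.70 in aged and 9.90, 9.70 and 9.74 in adolescent cells (-1.12 ± 0.12). The 5 rises became 3 without aged replicate 3 or adolescent replicate 2. The signalling adaptors Irs2 (1.153 ± 0.09) and Pik3r1 (1.10 ± 0.09) and the binding protein Igfbp5 (0.85 ± 0.10) were higher.

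MicroRNA genes were examined after their values were seen. MicroRNAs are short RNAs cut from hairpins in longer transcripts, and each pairs with messenger RNAs mainly through its seed, bases 2 to 8. The probe sets named for these genes read the hairpin or the transcript around it, so the levels below are not levels of mature microRNA. Of 297 microRNA genes 48 were higher in aged cells and 7 lower, 16 by at least 2-fold, all of these higher. Over all genes 8.68% were higher and 13.8% lower, and 1.63% and 2.64% by at least 2-fold. Both levels lay within the receptor range for 169 of the 297, and without aged replicate 1 the counts were 79 higher and 9 lower. Mature sequences are given from RefSeq (GRCm38.p6) with the seed in capitals. They are a choice of those with large rises above the receptor range, a known link to satellite cells, or the seed of 1 of these. Others that rose, such as Mir340 (1.25) and Mir30e (1.22), are not shown.

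miR-27a-3p: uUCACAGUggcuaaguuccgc
miR-23a-3p: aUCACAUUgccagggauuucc
miR-24-3p: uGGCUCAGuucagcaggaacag
let-7e-5p: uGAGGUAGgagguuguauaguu
let-7c-5p: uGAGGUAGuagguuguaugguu
let-7d-5p: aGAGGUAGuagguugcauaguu
miR-99a-5p: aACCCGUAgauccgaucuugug
miR-100-5p: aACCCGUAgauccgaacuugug
miR-489-3p: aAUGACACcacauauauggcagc
miR-708-5p: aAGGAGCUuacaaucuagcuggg
miR-28a-5p: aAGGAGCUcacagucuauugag

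The 3 largest rises came from neighbours on chromosome 8. Mir27a read 9.45, 10.19 and 10.46 in aged and 7.12, 7.31 and 7.38 in adolescent cells (2.76 ± 0.23, adjusted p = 0.000129). Mir23a differed by 2.54 ± 0.26 and Mir24-2 by 1.96 ± 0.22, and their seeds differ from each other. Aged replicate 1 was the lowest aged array for all 3. Let-7e, let-7c and let-7d share the seed GAGGUAG, the family that lowers fetal growth genes in many animals. No other let-7 gene was called. Mirlet7e read 7.70, 7.28 and 7.48 in aged and 5.76, 6.16 and 6.12 in adolescent cells (1.47 ± 0.15), Mirlet7c-1 differed by 1.25 ± 0.30 and Mirlet7d by 0.60 ± 0.17. Of 18 let-7 targets and oncofetal genes 4 were lower and 2 higher, and repeated quantile normalization gave 4 and 5. Fras1 (-0.94 ± 0.14), Cdc25a (-0.73 ± 0.18) and Mycn (-0.54 ± 0.12) were lower in addition to Ccnd1, and Myc was higher. Cdc25a lost its call without aged replicate 2 or 3, and the 2 rises became 4 without aged replicate 1 and 1 without any single one of the other arrays.

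Mir99a, next to Mirlet7c-1 on chromosome 16, read 7.55, 8.14 and 8.17 in aged and 6.68, 6.48 and 6.58 in adolescent cells (1.37 ± 0.17). The transcript Mir99ahg, a host of Mir99a by its name, differed by 0.83 ± 0.17. By position neither Mir99a nor Mirlet7c-1 was found within a measured gene. Mir100, whose seed ACCCGUA is the same as that of miR-99a, differed by 1.14 ± 0.29. MiR-489 is known for keeping mouse satellite cells quiescent. Its gene, Mir489, read 6.58, 7.88 and 7.52 in aged and 5.96, 6.29 and 6.10 in adolescent cells (1.21 ± 0.29), and its neighbour Mir653 differed by 1.03 ± 0.26. Both lie within Calcr, which did not pass. Mir224 (1.02 ± 0.14) and Mir452 (1.35 ± 0.29) lie within Gabre, which rose by 3.09 ± 0.13, but both levels of each lay within the receptor range. Mir708 differed by 0.69 ± 0.14 and lies within Tenm4 (0.34 ± 0.10), and Mir28a, of the same seed AGGAGCU, differed by 1.24 ± 0.27. Mir15b was lower (-0.89 ± 0.15, both levels within the receptor range) and lies within Smc4, a condensin subunit that fell (-2.16 ± 0.10). Of 30 called microRNA genes that lie within the span of a measured gene, that gene was called in the same direction for 9. It was called in the opposite direction for 1 and not called for 20. The opposite call was that of Mir676, which differed by 0.33 ± 0.09 within Eda (-0.36 ± 0.09). Strand was not compared, so some of these microRNA genes may lie antisense to the gene and not in its transcript.

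**Figure D3:**
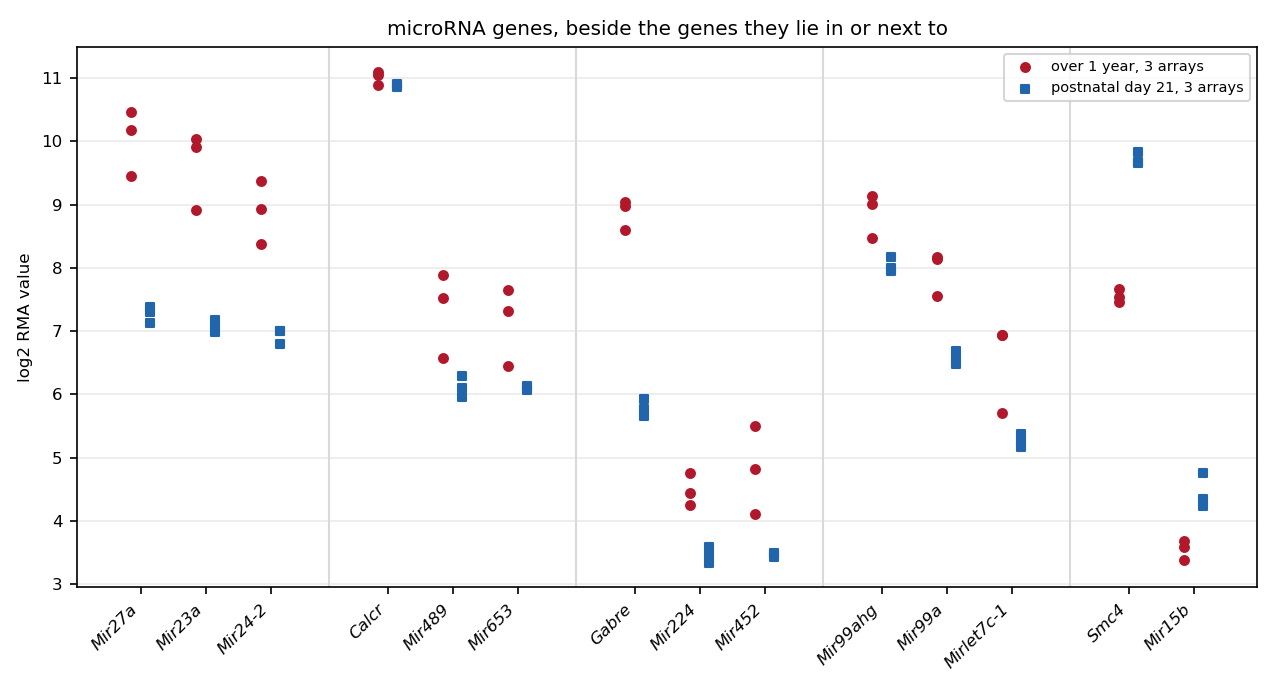
Log2 values of microRNA genes on each aged (circles) and adolescent array (squares), grouped with the gene that holds them or with their neighbours. Calcr overlaps between the ages while Mir489 and Mir653 within it do not, and Gabre is higher and Smc4 lower in aged cells, as are the microRNA genes in them.

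Immediate early genes, which cells switch on within minutes of a stimulus and also during tissue digestion, rose most widely. Of 31 measured, 24 were higher in aged cells and 0 lower, 15 by at least 2-fold, and the median was 0.93. Atf3, a stress-induced transcription factor, read 11.25, 10.94 and 10.84 in aged and 8.09, 8.02 and 8.25 in adolescent cells (2.89 ± 0.13, adjusted p = 6.8e-06). The AP-1 subunits Junb (1.76 ± 0.10), Jund (1.63 ± 0.09) and Fosb (1.37 ± 0.08) were higher, and Fosb stood at 11.92, 11.81 and 11.83 in aged and at 10.43, 10.53 and 10.50 in adolescent cells. All cells went through the same enzymatic digestion before sorting, and its part in these levels was not tested. The list mean over the ages in order was 7.98 to 8.31 in fetal, 8.55 to 8.57 in adolescent, 9.03 to 9.31 in adult and 9.56 to 9.85 in aged cells. The cAMP element (TGACGTCA) was found in 4 of 19 promoters of called members (21.1%) and in 2.33% of all measured genes. The AP-1 motif (TGANTCA) was found in 0 of these 19 promoters and in 7.12% of all measured genes.

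Cytokine signalling through JAK and STAT showed 12 of 38 genes higher and 1 lower, with a median of 0.27. Socs3, the feedback inhibitor of this pathway, read 10.88, 10.37 and 10.59 in aged and 8.67, 8.79 and 8.83 in adolescent cells (1.85 ± 0.13, adjusted p = 6.3e-05). Cebpd, a transcription factor that STAT proteins induce, read 10.30, 9.73 and 9.82 in aged and 7.47, 7.40 and 7.47 in adolescent cells (2.50 ± 0.15). The cytokine Clcf1 (1.1996 ± 0.09) and the repressor Bcl6 (0.59 ± 0.09) were higher. Stat3 itself read 9.51, 9.46 and 9.48 in aged and 9.13, 9.34 and 9.41 in adolescent cells, and its difference of 0.19 ± 0.10 did not pass (adjusted p = 0.239). The 12 rises became 20 without aged replicate 1 and 7 without adolescent replicate 2 or adolescent replicate 3. The single fall was lost without aged replicate 3 or any 1 of the adolescent arrays.

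In the TGF-beta and bone morphogenetic protein pathway 17 of 47 genes were higher and 4 lower, with a median of 0.16. Id3 and Id1 are direct targets of bone morphogenetic proteins that block differentiation factors. Id3 read 10.75, 10.50 and 10.59 in aged and 8.66, 8.54 and 8.56 in adolescent cells (2.03 ± 0.10, adjusted p = 9.67e-06), and Id1 read 10.21, 10.26 and 10.38 in aged and 8.83, 8.64 and 8.68 in adolescent cells (1.57 ± 0.10). The inhibitory Smads Smad7 (1.08 ± 0.11) and Smad6 (0.79 ± 0.09) and the repressor Skil (0.81 ± 0.08) were higher too. Mstn, the muscle growth inhibitor myostatin, differed by -0.54 ± 0.09, with both levels within the receptor range. The 4 falls became 2 without aged replicates 2 or 3 or adolescent replicates 2 or 3.

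Notch genes gave 6 of 29 higher and 5 lower, and 5 higher and 7 lower after centring. The target Hes1 and the coactivators Maml2 (1.43 ± 0.12) and Maml3 (0.77 ± 0.09) were higher. Dll1, a ligand, read 7.87, 7.82 and 7.86 in aged and 8.47, 9.22 and 9.27 in adolescent cells (-1.13 ± 0.20). Notch1 was lower by -0.31 ± 0.09 (adjusted p = 0.0378), a call lost without aged replicates 2 or 3 or adolescent replicates 2 or 3. Without aged replicate 1 the pathway had 10 higher, and without aged replicates 2 or 3 or adolescent replicates 2 or 3 it had 3 lower. Of 44 Wnt genes 5 were lower and 4 higher, 10 and 4 after centring, and 5 and 9 after repeated quantile normalization. Wnt4 (1.11 ± 0.16), Tcf7l2 (0.65 ± 0.10) and the receptor Fzd7 (0.56 ± 0.12) were higher, and the secreted inhibitor Sfrp2 (-1.16 ± 0.10) and Fzd10 (-0.38 ± 0.08, lost without aged replicate 3 or adolescent replicate 3) lower. Wnt counts without single arrays ran from 1 lower without aged replicate 3 or adolescent replicate 3 to 10 lower and 8 higher without aged replicate 1.

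Receptors and brakes of FGF, HGF and ErbB signalling had 7 of 29 higher and 3 lower (11 and 3 without aged replicate 1, 7 and 1 without aged replicate 3). Fgf2 (0.69 ± 0.10), Hgf (0.77 ± 0.14, both levels within the receptor range) and the brake Spred3 (0.49 ± 0.09) were higher and the phosphatase Dusp4 lower (-0.998 ± 0.19). Ret, a receptor of the glial-derived neurotrophic factor family, read 8.15, 8.29 and 8.31 in aged and 9.81, 10.17 and 10.24 in adolescent cells (-1.82 ± 0.13). The neuropeptide gene Gal read 9.10, 9.46 and 9.51 in aged and 9.22, 8.70 and 8.80 in adolescent cells, overlapped, and did not pass (0.45 ± 0.16, adjusted p = 0.0909).

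**Figure D4:**
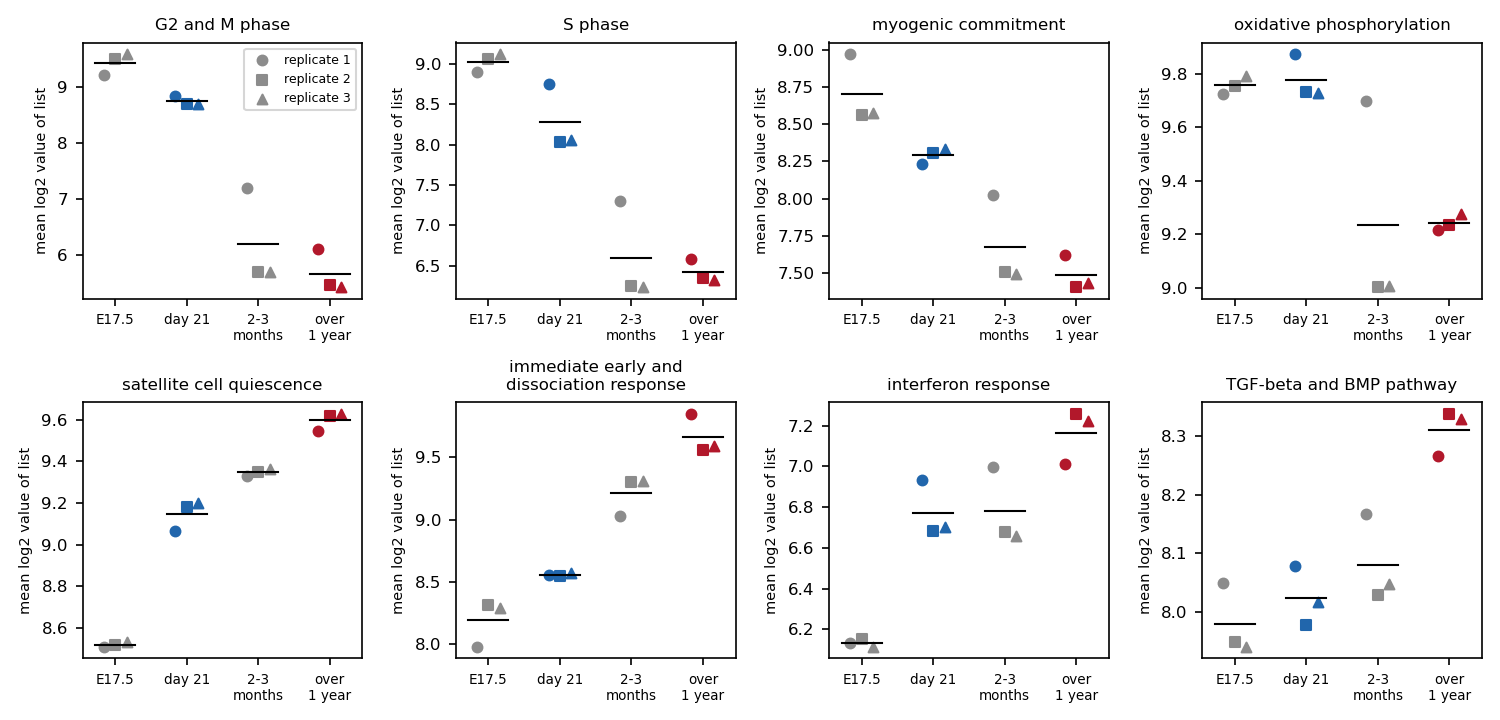
Mean log2 value of the measured members of 8 lists on each array, over E17.5, day 21, 2 to 3 months and over 1 year, with a bar at the mean of each age, a symbol shape for each replicate and a vertical scale of its own for each list. Day 21 (blue) and over 1 year (red) do not overlap in any of the 8, which are a choice from 42 lists. For some lists not shown, such as the Notch and Wnt pathways, these ages do overlap. Adult replicate 1 lies apart from the other two adult arrays in most panels.

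Clock genes were higher in 7 of 20 and lower in 0 (8 and 1 without aged replicate 1). The repressors Bhlhe40 (1.61 ± 0.19) and Bhlhe41 (1.40 ± 0.10), the light-responsive Per1 (0.95 ± 0.15), Nr1d1 (0.80 ± 0.10) and Cry2 (0.79 ± 0.09) were among them. Bhlhe40 read 9.72, 9.07 and 8.99 in aged and 7.52, 7.69 and 7.75 in adolescent cells. The hour at which tissue was taken is not given, so an effect of time of day cannot be told apart from age.

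Hormone genes held some of the largest rises. Akr1c14, an aldo-keto reductase that acts on steroids, read 9.41, 9.84 and 9.73 in aged and 5.65, 5.24 and 5.15 in adolescent cells (4.32 ± 0.16, adjusted p = 4.46e-06). Tshr, the receptor of thyrotropin, read 10.09, 10.49 and 10.55 in aged and 6.87, 7.47 and 7.52 in adolescent cells (3.09 ± 0.19). Greb1, a target of the oestrogen receptor, read 7.47, 8.54 and 8.35 in aged and 4.93, 5.16 and 5.29 in adolescent cells (2.99 ± 0.25). The adolescent levels of Akr1c14 and Greb1 lay within the receptor range, so background limits the size of their differences. Hsd11b1, which activates glucocorticoids, differed by 1.42 ± 0.19 and Dio2, which activates thyroid hormone, by 1.13 ± 0.14. Esr1, the oestrogen receptor, read 9.67, 9.93 and 9.97 in aged and 10.00, 10.09 and 10.16 in adolescent cells (-0.23 ± 0.11, adjusted p = 0.182). Of 28 genes of the list 7 were higher and 4 lower, 11 and 5 without aged replicate 1, and 2 lower without adolescent replicate 2 or adolescent replicate 3.

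Receptors of neurotransmitters rose in 10 of 39 cases and fell in 1, while 20 of the 39 lay within the receptor range at both ages. Grin2a, a subunit of the NMDA glutamate receptor, read 7.51, 8.46 and 8.31 in aged and 4.603, 4.26 and 4.597 in adolescent cells (3.61 ± 0.23, adjusted p = 4.01e-05). Gabre, a subunit of the GABA-A receptor, read 8.61, 9.04 and 8.98 in aged and 5.76, 5.66 and 5.93 in adolescent cells (3.09 ± 0.13). Gabra3 (2.23 ± 0.12) of the same receptor and the muscarinic receptor Chrm3 (2.12 ± 0.19) were higher. Chrna4, a nicotinic subunit, was lower, at 6.31, 5.91 and 5.88 in aged and 7.71, 8.49 and 8.54 in adolescent cells (-2.21 ± 0.23). Other large rises belonged to P2ry14, a receptor of nucleotide sugars, at 10.01, 9.98 and 10.00 in aged and 6.61, 6.45 and 6.53 in adolescent cells (3.46 ± 0.09). The prostaglandin transporter Slco2a1 (2.93 ± 0.10), the homeobox gene Dbx1 (3.06 ± 0.14), the heparan sulfotransferase Hs6st3 (2.99 ± 0.13), the matrix proteoglycan Spock3 (3.05 ± 0.18), the adhesion protein Mpzl2 (3.24 ± 0.18) and Pof1b (3.17 ± 0.10) rose as well. For Grin2a, Spock3, Mpzl2 and Pof1b the adolescent level lay within the receptor range.

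Interferon response genes were higher in 12 of 38 and lower in 0, with a median of 0.28. Irf1, an activator of this response, read 8.86, 8.87 and 8.87 in aged and 8.02, 8.02 and 8.03 in adolescent cells (0.85 ± 0.08, adjusted p = 0.00021). Oasl2 (1.08 ± 0.15), Lgals3bp (0.96 ± 0.10), Irf9 (0.75 ± 0.10) and the RNA sensor Ifih1 (0.72 ± 0.13) were higher. The count became 21 without aged replicate 1, 7 without aged replicate 3 and 6 without adolescent replicate 2 or adolescent replicate 3. The interferon element was found in 3 of 10 promoters of called members (30%) and in 3.4% of all measured genes. In class I antigen presentation 7 of 15 were higher and 2 lower, and 3 and 2 after centring. H2-Q4 (0.89 ± 0.12), H2-M3 (0.63 ± 0.09), Tapbp (0.45 ± 0.12) and the proteasome activator Psme1 (0.40 ± 0.09) were higher and Psme2 lower (-0.48 ± 0.12). Psme1 and Psme2 lost their calls without aged replicate 3 or adolescent replicates 2 or 3, and Tapbp without aged replicates 2 or 3 or adolescent replicates 1 or 2. Class I genes are close copies, so their probe sets may share signal. The 7 rises became 2 without aged replicate 3 or adolescent replicate 2 and 3 without aged replicate 2 or adolescent replicate 3, and the 2 falls became 1 or 0 without any single array other than aged replicate 1.

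Chemokines and secreted inflammatory factors were higher in 10 of 28 and lower in 0 (12 and 3 without aged replicate 1), and 10 of the 28 lay within the receptor range at both ages. Cx3cl1 read 7.73, 7.92 and 8.03 in aged and 6.497, 6.29 and 6.36 in adolescent cells (1.51 ± 0.11). The eosinophil attractant Ccl11 (1.36 ± 0.19), Il18 (1.24 ± 0.12), Il15 (1.12 ± 0.13) and Cxcl14 (0.72 ± 0.11) were higher.

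The summed signals of macrophage and of lymphocyte markers were high on 2 of the 3 aged arrays. The chemokine list mean was 6.17, 6.09 and 6.06 in aged and 5.84, 5.64 and 5.67 in adolescent cells. Summed on the linear scale, 21 macrophage and monocyte markers gave 2220, 4779 and 4803 in aged and 2564, 1915 and 1958 in adolescent cells. The 14 lymphocyte markers gave 527, 989 and 972 in aged and 521, 464 and 448 in adolescent cells. Aged replicate 1 lay close to or among the adolescent arrays in both sums, and aged replicates 2 and 3 lay above all of them. Such sums weigh the brightest markers most. The median difference was 0.01 over the macrophage markers and 0.27 over the lymphocyte markers. Of the macrophage markers 4 were higher and 0 lower, a count of 8 without aged replicate 1 and of 0 to 2 without any single one of the other arrays. Of the lymphocyte markers 2 were higher and 0 lower, 5 without aged replicate 1 and 1 without aged replicates 2 or 3 or adolescent replicates 2 or 3, and 9 of the 14 lay within the receptor range at both ages. Cd74 of antigen-presenting cells read 8.00, 9.65 and 9.69 in aged and 7.63, 7.42 and 7.47 in adolescent cells (1.61 ± 0.40), and H2-Aa read 8.08, 9.67 and 9.63 in aged and 7.80, 7.49 and 7.59 in adolescent cells (1.498 ± 0.38). Lyz2 differed by 0.98 ± 0.27 and Cd68 by 0.57 ± 0.13. Calls for Cd74, H2-Aa and Lyz2 were lost without any single array other than aged replicate 1, and that for Cd68 without aged replicate 3 or adolescent replicates 2 or 3. The receptor Csf1r (-0.25) and the surface marker Adgre1 (-0.03), both defining for macrophages, did not pass.

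Jchain, which joins antibody molecules in plasma cells, read 4.54, 8.504 and 8.42 in aged and 3.83, 3.82 and 3.86 in adolescent cells (3.32 ± 0.92, adjusted p = 0.0337). It lost its call without any single array other than aged replicate 1, and without that array it differed by 4.62. Antibody gene segments, grouped after their values were seen, showed the same array pattern, with 7 of 11 higher and 0 lower. Over all genes 8.68% were higher and 13.8% lower. Without aged replicate 1, 10 of the segments were higher. Such segments are near copies that may share signal. Igha read 6.97, 8.57 and 8.58 in aged and 5.21, 5.48 and 5.40 in adolescent cells (2.68 ± 0.39), and Ighm read 6.99, 7.97 and 7.96 in aged and 6.39, 6.41 and 6.48 in adolescent cells (1.21 ± 0.24). The T cell marker Cd3e read 6.05, 5.75 and 5.97 in aged and 5.94, 5.91 and 5.97 in adolescent cells.

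Endothelial markers summed to 7648, 11191 and 10777 in aged and to 9725, 6722 and 6859 in adolescent cells, so replicate 1 of each age went against the order of the other two. Of 20 endothelial genes 1 was called higher, Sox18 (0.43 ± 0.13), a count of 9 without aged replicate 1, 5 without adolescent replicate 1 and 0 without any 1 of the other arrays. The endothelial count also depended on scaling, with 7 higher after repeated quantile normalization and 0 after centring. Smooth muscle and pericyte markers had 4 of 15 higher and 2 lower, among them Kcnj8 (1.12 ± 0.17) and Abcc9 (0.82 ± 0.16) higher and Acta2 (-0.95 ± 0.10) and Mcam (-1.29 ± 0.17) lower. Of 17 fibroblast markers 4 were higher and 5 lower, and 4 and 3 after repeated quantile normalization, with the proteoglycan Dcn (0.50 ± 0.10) higher and Mfap5 (-0.84 ± 0.17) lower. The fibroblast counts became 2 higher and 2 to 3 lower without aged replicates 2 or 3 or adolescent replicates 2 or 3. Tendon markers had 1 of 8 higher, Mkx (1.198 ± 0.13), and 3 lower, Tnmd (-1.04 ± 0.18), Kera (-0.78 ± 0.15) and Thbs4 (-0.41 ± 0.10, lost without aged replicates 2 or 3 or adolescent replicate 3). Schwann cell markers had 1 of 10 higher and 2 lower, with Pmp22 at -0.47 ± 0.09, and summed to 3517, 3319 and 3479 in aged and to 4811, 4372 and 4463 in adolescent cells. Neutrophil markers had 1 of 12 higher, S100a9 (0.32 ± 0.09), with all 12 within the receptor range at both ages, and the count became 3 without aged replicate 1 and 0 without any single one of the other arrays. Neutrophil sums were 400.3, 380.2 and 380.2 in aged and 347.7, 326.0 and 327.5 in adolescent cells, and the count was 2 after repeated quantile normalization and 0 after centring. Mast cell markers had 0 of 10 called, and 1 higher without aged replicate 1. Erythroid markers had 1 of 6 lower, Epor (-0.55 ± 0.09), and 3 without aged replicate 1, and summed to 598, 346 and 331 in aged and to 392, 485 and 466 in adolescent cells. Adipocyte markers had 0 of 7 called, 2 higher without aged replicate 1 or after repeated quantile normalization, and 1 without adolescent replicate 1. The part of other cells in the counts of the pathway lists was not tested.

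**Figure D5:**
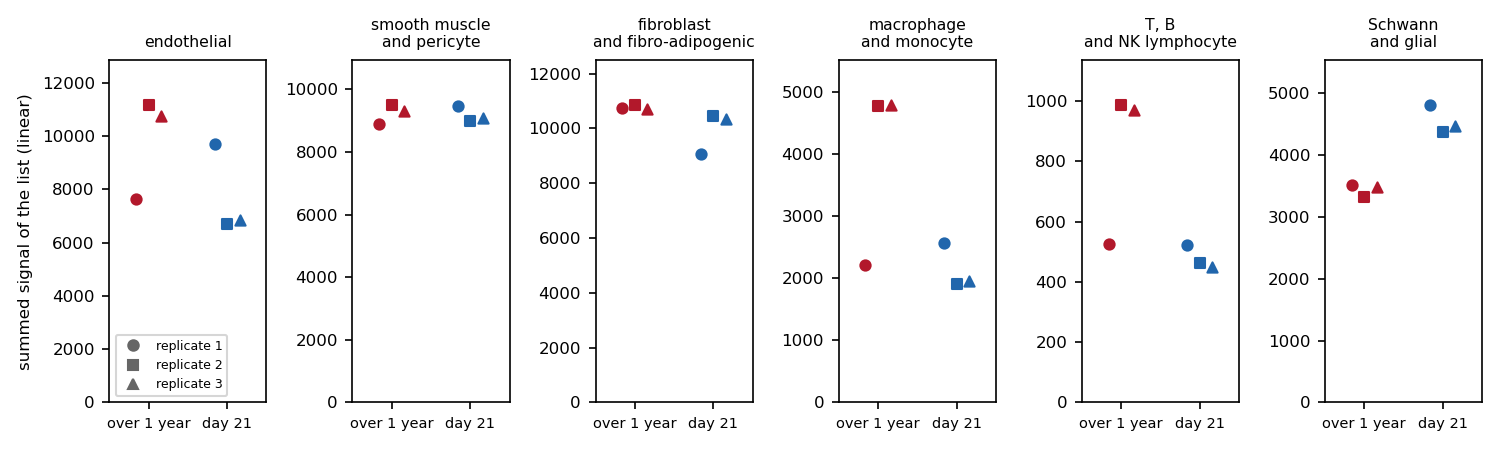
Summed linear signal of the markers of 6 other cell types on each aged (red) and adolescent array (blue), with a symbol shape for each replicate and each panel from 0 on a scale of its own. Macrophage and lymphocyte sums are high on aged replicates 2 and 3 only, the endothelial sums of replicate 1 are reversed between the ages, and Schwann cell sums are lower on all aged arrays.

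Matrix genes were lower more often than higher. Of 33 collagen chains 13 were lower and 4 higher, with a median of -0.16. Col1a2, a chain of the main fibrillar collagen, read 7.27, 7.47 and 7.38 in aged and 9.01, 9.28 and 9.33 in adolescent cells (-1.84 ± 0.11, adjusted p = 3.11e-05). Its partner Col1a1 (-1.65 ± 0.14), Col4a2 of basement membranes (-0.92 ± 0.10), Col6a3 (-0.85 ± 0.08) and Col6a1 (-0.77 ± 0.09) were lower. Col1a1 is also among the fibroblast markers, whose summed signal was 10754, 10867 and 10695 in aged and 9071, 10458 and 10353 in adolescent cells. The mean log2 value of these markers was 8.11, 7.95 and 8.04 in aged and 8.05, 8.29 and 8.30 in adolescent cells. Their median difference was -0.18, so the 2 summaries do not give the same order. Of 18 genes that process collagen 6 were lower and 1 higher, a rise that was lost without aged replicate 2, adolescent replicate 2 or adolescent replicate 3 and became 2 without adolescent replicate 1. The collagen chaperone Serpinh1 (-1.04 ± 0.11), the hydroxylases Plod1 (-0.85 ± 0.09), Plod3 (-0.61 ± 0.10) and P3h1 (-0.85 ± 0.10) and the enhancer Pcolce2 (-0.83 ± 0.18) were lower.

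Among 43 laminins, proteoglycans and other matrix genes, 20 were lower and 8 higher (13 lower without adolescent replicate 3). Gpc3 (-1.74 ± 0.16) and Gpc1 (-1.24 ± 0.12), proteoglycans that bind growth factors, and Lamb1 (-1.58 ± 0.14), a laminin chain, were lower. Ogn, a small leucine-rich proteoglycan, read 10.93, 11.09 and 11.01 in aged and 9.64, 9.39 and 9.40 in adolescent cells (1.53 ± 0.10), and Thbs2 rose by 1.46 ± 0.10. Of 27 proteases and inhibitors 6 were lower and 5 higher, 5 and 9 after repeated quantile normalization, and 8 and 9 without aged replicate 1. Adam12 (-1.67 ± 0.10), which acts in myoblast fusion, Adam19 (-1.23 ± 0.12), Adam9 (-0.71 ± 0.10) and Adamts7 (-0.77 ± 0.09) were lower and Mmp19 higher (0.90 ± 0.09). Of 28 integrins and tetraspanins 7 were lower and 3 higher (4 and 1 without aged replicate 3, 1 higher without adolescent replicate 3). Itgb5 read 9.41, 9.52 and 9.46 in aged and 8.24, 8.19 and 8.23 in adolescent cells (1.25 ± 0.08, adjusted p = 4.38e-05). The satellite cell integrin Itga7 (-0.51 ± 0.09) and the tetraspanins Cd82 (-0.45 ± 0.09), Cd151 (-0.80 ± 0.14) and Tspan12 (-0.55 ± 0.11) were lower.

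Mitochondrial genes were lower in 29 of 41 cases for oxidative phosphorylation, with 0 higher and a median of -0.50, and in 18 of 25 for the citric acid cycle, with 2 higher and a median of -0.42. Ndufa4 read 7.71, 8.03 and 8.12 in aged and 9.12, 9.01 and 9.01 in adolescent cells (-1.09 ± 0.12, adjusted p = 0.000472). Cox5a (-1.06 ± 0.13) of cytochrome oxidase, Atp5o (-1.002 ± 0.13) and Atp5a1 (-0.78 ± 0.09) of the ATP synthase and Uqcrc2 (-0.77 ± 0.10) were lower. In the citric acid cycle Idh3a (-1.27 ± 0.11), Sdhd (-1.27 ± 0.11), Fh1 (-1.04 ± 0.10), Dld (-0.68 ± 0.10) and Sucla2 (-0.56 ± 0.09) were lower. Mitochondrial ribosome genes had 14 of 30 lower and 0 higher, with Mrpl18 at -0.92 ± 0.15 and Mrpl13 at -0.79 ± 0.09. The oxidative phosphorylation count became 19 without adolescent replicate 2, that of the citric acid cycle 11 without adolescent replicate 3, and that of mitochondrial ribosomes 9 without adolescent replicate 3 and 8 without aged replicate 3. The 2 citric acid cycle rises became 1 without any single array other than aged replicate 1, and the mitochondrial ribosome list gained 1 rise without adolescent replicate 1. The list mean of oxidative phosphorylation was 9.73 to 9.79 in fetal, 9.73 to 9.87 in adolescent, 9.0 to 9.70 in adult and 9.21 to 9.28 in aged cells, and adult replicate 1 gave the 9.70.

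Proteasome subunits were lower in 27 of 31 cases with 0 higher and a median of -0.55. Psmd2, a subunit of the regulatory cap, read 9.34, 9.26 and 9.23 in aged and 10.25, 10.60 and 10.61 in adolescent cells (-1.21 ± 0.12, adjusted p = 0.00027). Psmb4 (-1.09 ± 0.11), Psma6 (-1.05 ± 0.10), Psmd1 (-0.88 ± 0.09) and Psmc3 (-0.84 ± 0.09) were lower, and the count became 16 without adolescent replicate 3. Heat shock and chaperone genes had 13 of 25 lower and 4 higher (2 higher without adolescent replicate 2). Hspb1, a small stress-induced heat shock protein, read 10.43, 10.13 and 10.25 in aged and 9.17, 8.29 and 8.32 in adolescent cells (1.68 ± 0.22). Among the members that fell were Pdia4 (-0.77 ± 0.10) of the endoplasmic reticulum, Cct3 (-0.74 ± 0.08) of the cytosolic chaperonin, Hspd1 (-0.70 ± 0.09) of mitochondria and Hspa4 (-0.56 ± 0.09).

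Of 22 glycolysis genes 8 were lower and 4 higher. Pgk1 read 9.57, 9.43 and 9.28 in aged and 10.83, 10.68 and 10.70 in adolescent cells (-1.31 ± 0.10), and Pgam2 (-0.80 ± 0.09) and the insulin-regulated glucose transporter Slc2a4 (-0.71 ± 0.09) were lower. Ldhb (0.74 ± 0.08) and the lactate transporter Slc16a1 (0.79 ± 0.10) were higher. The 4 rises became 7 without aged replicate 1 and 2 without any 1 of the adolescent arrays. Fatty acid genes had 9 of 35 lower and 6 higher. The lipid droplet proteins Plin3 (-1.38 ± 0.17) and Plin4 (-0.78 ± 0.10) were lower, and Acacb (1.17 ± 0.12), Scd1 (0.97 ± 0.13) and the fatty acid transporter Slc27a1 (0.74 ± 0.09) were higher. Fatty acid rises became 3 without aged replicate 3, adolescent replicate 2 or adolescent replicate 3, and falls became 5 without adolescent replicate 3. Cholesterol synthesis had 2 of 21 lower, Fdps (-0.83 ± 0.09) and Dhcr7 (-0.36 ± 0.10), and 0 higher, and repeated quantile normalization gave 1 and 2. Without aged replicate 1 it had 3 higher, and 1 lower without aged replicate 2, adolescent replicate 1 or adolescent replicate 3. Dhcr7 lost its call without aged replicate 2 or any 1 of the adolescent arrays.

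Antioxidant and glutathione genes had 11 of 37 higher and 9 lower, and 10 and 13 after centring. Mt1, a metallothionein that binds metals, read 11.43, 10.89 and 11.02 in aged and 9.98, 9.34 and 9.50 in adolescent cells (1.505 ± 0.19). Gstm2 (0.996 ± 0.11), Sod3 (0.92 ± 0.12) and Gsta4 (0.86 ± 0.11) were higher and the mitochondrial peroxiredoxin Prdx3 lower (-1.02 ± 0.12). The 11 rises became 7 without adolescent replicate 3 and 6 without aged replicates 2 or 3 or adolescent replicate 2. Autophagy and lysosome genes had 6 of 31 higher and 4 lower, and 4 and 6 after centring. The Atg8 relatives Gabarapl1 (0.73 ± 0.12) and Map1lc3a (0.63 ± 0.10) and the lysosomal glucosidase Gaa (0.58 ± 0.10) were higher and Wipi1 (-0.76 ± 0.12) and Atg5 (-0.60 ± 0.09) lower. These autophagy rises became 3 without adolescent replicate 2 or adolescent replicate 3, and the falls became 2 without aged replicate 3, adolescent replicate 2 or adolescent replicate 3.

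Hox and limb position genes, which record the place of a cell along the body, were higher in 12 of 37 and lower in 3. Hoxa3 (0.89 ± 0.15), Hoxa6 (0.69 ± 0.13), Hoxc9 (0.68 ± 0.13) and Hoxc4 (0.57 ± 0.09) were higher and Tbx15 lower (-0.81 ± 0.11). Hoxc9 read 8.23, 8.68 and 8.57 in aged and 7.85, 7.73 and 7.87 in adolescent cells. The 12 rises became 6 without aged replicate 2 and 5 without aged replicate 3, adolescent replicate 2 or adolescent replicate 3. Axon guidance genes had 12 of 58 higher and 10 lower, and 9 and 13 after centring (7 higher without adolescent replicate 2). Efna5 (0.86 ± 0.09) and Ntn1 (0.66 ± 0.08), both guidance cues, were higher, and the receptors Plxna1 (-1.19 ± 0.14) and Epha3 (-0.78 ± 0.10, both levels within the receptor range) and the cue Sema6b (-1.09 ± 0.12) were lower. Among 10 genes often used as references 2 were lower, Pgk1 and Sdha (-0.37 ± 0.10), and 0 higher. Ppia (-0.26 ± 0.08, adjusted p = 0.0623), Hprt (-0.34 ± 0.10, adjusted p = 0.053) and B2m (0.46 ± 0.16, adjusted p = 0.0722) did not pass. The reference falls became 4 without aged replicate 1 and 1 without aged replicates 2 or 3 or adolescent replicates 2 or 3, and 1 rise appeared without adolescent replicate 1.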

How the data were processed

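Per the labels' protocols, muscle was digested with dispase and collagenase, ZsGreen-positive cells were sorted, and 100 ng of RNA per sample was amplified and biotin-labelled for hybridisation to 1-colour Affymetrix arrays. Per the submitters' processing notes, the authors ran RMA with the software Expression Console 1.2.1.20, and what they deposited is log2 signal per probe set. Its background correction and normalization were kept, since scanner files were not used here. The genome build is not given in the sources used here.

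Of 35556 probe sets, 21789 carry 1 gene symbol, 1621 several and 12146 none in the annotation used. They reduce to 19938 genes by the highest mean over 12 arrays. 999 genes had several probe sets. The aged and adolescent arrays were fitted with limma 3.58.1 in R 4.3.3 (lmFit and eBayes, 4 residual degrees of freedom, two-sided), with Benjamini-Hochberg adjustment over all genes. The number of arrays limits the precision. The method was first tried on simulated arrays with known changes and independent noise. That trial held no close replicates and no array that stands apart, so it does not gauge the calls made here. The labels state no pairing, so none was used. Deviations of same-numbered arrays from their group means correlated at -0.17, -0.18 and -0.03, and those of arrays with unlike numbers at -0.12 to 0.18. With 3 arrays per age these correlations cannot show whether arrays were paired.

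Members and lists were chosen with earlier results of these data known. The 54 lists hold 1538 names, of which 1446 matched. The text names the 14 genes that rose most and the 14 that fell most, among called genes whose groups do not overlap and whose higher group averages 6 or more, leaving out predicted genes, small RNAs, receptors of smell, antigen receptor segments and clone names, then up to 5 members of each list by smallest p, and a fixed set of regulators. MicroRNA, histone and antibody groups described outside that rule are marked in the text, and Cdh5, Csf1r, Adgre1, Cd3e, Smc4, Tenm4, Eda and Mir99ahg were added after their values were seen. Promoters and microRNAs were matched by symbol, with a mature sequence for 51 of 55 called microRNA genes. Mature sequences on chromosome 18 were left out, where the called Mir143 and Mir145a lie.

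Alternatives were all 12 arrays, 9 arrays without the adult stage, array weights, other scalings, filters and a floor on dim genes, other probe set rules, a trended and robust variance, receptor signal as a covariate, replicates 2 and 3 averaged, a replicate block, a test against a 1.5-fold change, and leaving out each array.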

Additional observations from a re-analysis of the deposited data

How the results depend on the processing

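With replicate number as a block, 3464 genes were called (1276 higher, 2188 lower), against 4489 without it, and the calls of 10 of 288 named genes were lost. The count of genes called was 13381 with array weights (5751 higher, 7630 lower), in a weight estimate that did not converge, 6873 with receptor signal as a covariate (3058 higher, 3815 lower), 1657 with replicates 2 and 3 of each age averaged, which leaves fewer samples (548 higher, 1109 lower), and 621 against a 1.5-fold change, which asks for larger differences (210 higher, 411 lower). Leaving out each array gave 2748 to 6690 calls, 1006 to 3006 higher and 1742 to 3684 lower. The cause of the differences between arrays left out was not tested. The other alternatives gave 3631 to 5168 calls. Without adjustment 6574 genes had p under 0.05. Of 247 named genes called, 228 were called without each array in turn, and 0 of 288 named genes reversed under any alternative. Named genes that lost their call numbered 50 with replicates averaged, 131 against a 1.5-fold change, and at most 18 under each of the others. Signal over background limits genes within the receptor range, where differences are compressed.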
